A study of Mus musculus with 4 samples.

Results

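Melanocytes of the amputated mouse digit were examined in 4 libraries of droplet-based scRNA-Seq, single-cell RNA sequencing that counts each captured transcript once through a unique molecular identifier (UMI). A barcode was kept with 200 to 5500 genes, at most 30000 UMIs and at most 10% of its UMIs from mitochondrial genes. A kept barcode was called a melanocyte when it held at least 1 UMI in 3 or more of 5 genes, Dct, Tyrp1, Pmel, Mlana and Tyr. This gave 54 melanocytes among 93602 kept cells. The cells were chosen by these measured values, so the levels of the 5 genes, and the contrast of melanocytes with other cells, are given as descriptions with no test.

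Melanocytes are pigment cells that arise from the neural crest. They make melanin in melanosomes, organelles related to lysosomes, and pass these to neighboring keratinocytes. TYR, TYRP1 and DCT are the enzymes of melanin synthesis, PMEL forms the fibrils on which melanin is laid down, and MLANA helps PMEL mature. MITF is the transcription factor best known for control of pigment genes, and KIT, EDNRB and MC1R are receptors through which other cells of the skin guide melanocyte survival and pigment production. In mice, melanocytes are best known from hair follicles, with others in the epidermis of less hairy skin such as the paw.

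All libraries came from P3 digits of female C57BL/6 mice of 6 to 8 weeks, with the digits of 10 mice pooled in each. In the first experiment, mice received SAR131675, an inhibitor of the lymphatic growth factor receptor VEGFR3, at 30 mg/kg of chow for 8 days, or a matched control diet. In the second, lymph nodes were removed on one extremity (lymph node removal, LNR), with sham controls, which the methods describe as the opposite side. The labels give no time after amputation, and each condition is 1 library and 1 batch (LNR 1, sham 2, SAR131675 3, control diet 4), so condition and batch cannot be told apart. No comparison of libraries had replicates.

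The files held 38464 barcodes for SAR131675, 30831 for the control diet, 21669 for LNR and 22539 for sham, with 168507188 to 585284877 UMIs per library. Kept cells of the diet pair were deeper, with median UMIs of 11316 and 10712 against 5725 for LNR and 5851 for sham. The headers of the count files also name different versions of the counting software Cell Ranger, 8.0.1 for the diet pair and 6.1.2 for the LNR pair. The part of depth and software in differences between the pairs was not tested. The intervals below are exact 95% intervals that cover counting error only, and they treat UMIs or cells as independent. No melanocyte barcode occurred in more than 1 library, although 210 kept barcodes occurred in both libraries of the diet pair and 101 in both of the LNR pair.

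Because the rule rests on pigment genes, their upstream sequence is shown first. Of the 5 genes, Dct, Tyrp1 and Tyr were matched in a RefSeq promoter table (mouse build GRCm38.p6, 250 bases before to 50 after each gene's start), and Pmel and Mlana were not. TCATGTG, the M-box to which MITF is known to bind, was searched on both strands (CACATGA when read on the opposite one). It occurred in 3 of these 3 promoters and in 1239 of 32851 promoters of the table, or 3.77%. The motif was already tied to pigment genes through MITF, so its presence in these promoters is a description, and no enrichment was tested. The stretches below end before the start of 3 rule genes, of the melanosome channel gene Trpm1 and of the receptor gene Mc1r, both described below, and capitals mark the motif:
Tyr, chr7:87493513-87493574, minus strand: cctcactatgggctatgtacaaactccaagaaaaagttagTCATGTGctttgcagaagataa
Tyrp1, chr4:80834126-80834205, plus strand: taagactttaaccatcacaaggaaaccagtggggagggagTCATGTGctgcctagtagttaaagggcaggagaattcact
Dct, chr14:118052358-118052437, minus strand: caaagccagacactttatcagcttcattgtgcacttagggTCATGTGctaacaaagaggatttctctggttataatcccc
Trpm1, chr7:64153653-64153732, plus strand: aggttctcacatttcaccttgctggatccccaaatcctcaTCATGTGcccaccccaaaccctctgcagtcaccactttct
Mc1r, chr8:123406990-123407069, plus strand: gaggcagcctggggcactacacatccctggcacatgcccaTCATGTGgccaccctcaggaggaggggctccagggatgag

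The motif began 22 bases before the start of Tyr, 47 before Tyrp1, 52 before Mc1r, 142 before Trpm1 and 151 before Dct, and Dct held a second match on the opposite strand 232 bases before its start. Of 12 melanosome channel and transporter genes in a list described below, 10 were matched in the table, and 4 of these held the motif, Slc24a5, Slc7a11, Trpm1 and Tspan10. The windows of Mitf, Kit, Ednrb, Oca2 and Gpnmb did not contain these letters. A match is a description of the sequence and was not measured as binding. The count files were made on another build, so these coordinates were joined to no count.

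Most melanocytes carried all 5 rule genes. Of the 54 cells, 37 held 5 of the genes, 12 held 4 and 5 held 3, and the gene most often missing was Tyr, alone in 9 cells. Melanocytes held 6 to 548 UMIs of the 5 genes together, with a median of 125.5. Just outside the rule, 29 kept cells held 2 of the genes, with at most 20 UMIs and a median of 2, and just inside it the 5 cells with 3 genes held 6 to 43 UMIs with a median of 14. A further 1574 kept cells held 1 gene, with at most 9 UMIs, and 91945 held none.

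Dct, which encodes dopachrome tautomerase, was the most abundant of the 5. Summed over melanocytes and scaled to 1000000 UMIs of these cells (CPM), Dct stood at 4259 in SAR131675, 12473 in the control diet, 6569 in LNR and 9081 in sham, and all 54 cells held it. Pmel, also found in all 54 cells, stood at 2019, 6236, 2572 and 3147 CPM in the same order. Over all 54 cells the highest level of both was in the control diet library and the lowest in the SAR131675 library, an order that did not hold in the smaller sets of cells described below.

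Tyrp1, which stabilizes tyrosinase and oxidizes a melanin precursor, stood at 1602 CPM in SAR131675, 5385 in the control diet, 1179 in LNR and 1725 in sham. Mlana stood at 638, 3044, 1898 and 2802 CPM in that order. Tyr, the enzyme of the rate-limiting step, was the lowest of the 5 over all melanocytes, at 664, 2973, 350 and 472 CPM. It was found in 5 of 6, 11 of 12, 9 of 17 and 15 of 19 cells.

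In 3 of the 4 libraries the 5 genes were concentrated in the chosen cells. Melanocytes held 82.4% of all UMIs of the 5 genes in kept cells, from 73.0% for Pmel to 96.9% for Tyr. By library this share was 46.9% in SAR131675, 89.1% in the control diet, 84.0% in LNR and 88.8% in sham, so that in SAR131675 most UMIs of the rule genes lay outside the chosen cells. Together they made up 18159 CPM of melanocyte UMIs (17792 to 18531) and 2.22 CPM in other kept cells. A UMI of any of the 5 was found in 1.71% of other kept cells, 1.48% of keratinocytes, 1.60% of fibroblasts and 0.989% of endothelial cells, at median depths of 8592, 11244, 6371 and 6587 UMIs per cell against 8095 in melanocytes. Over the 4 libraries together, Schwann cells, which share the neural crest origin, had the highest such share, at 6.40% of 328 cells with a median depth of 5861 UMIs. By library it was not always the highest, since it was 16 of 190 Schwann cells in SAR131675 and 0 of 23 in sham. Tyrp1 alone was found in 16 of these 328 Schwann cells, or 4.88%, against 0.061% of other kept cells.

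**Figure D1:**
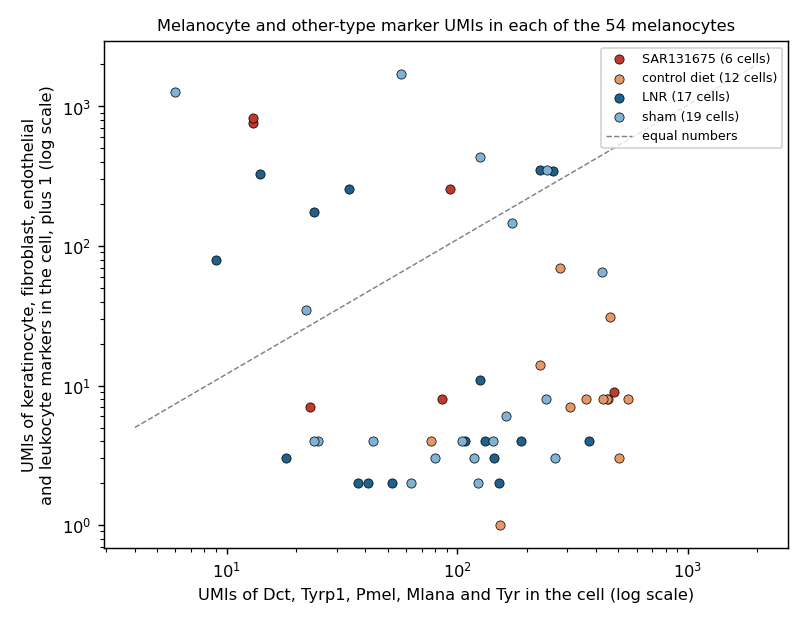
UMIs of the 5 rule genes in each of the 54 melanocytes (x axis, log scale) against UMIs of keratinocyte, fibroblast, endothelial and leukocyte markers in the same cell plus 1 (y axis, log scale), colored by library. In 40 cells the rule genes outnumber the other markers, below the dashed line of equal numbers, and 14 cells lie above it.

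Not every chosen barcode held mainly melanocyte transcripts. In 8 cells (2 in SAR131675, 2 in LNR and 4 in sham) at least 1% of all UMIs came from the keratins Krt5, Krt14, Krt15, Krt1 and Krt10. These keratin-high cells were deep, with a median of 16689.5 UMIs against 6021 in the 46 keratin-low cells. The UMIs of the rule genes were then set against those of marker lists for keratinocytes, fibroblasts, endothelial cells and leukocytes, a split chosen after the values were seen. The rule genes outnumbered these markers in 12 of 12 control diet cells, but in 3 of 6 from SAR131675, 11 of 17 from LNR and 14 of 19 from sham.

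The 14 cells that failed this split differed in what else they held. Cells 5 and 6 of SAR131675 (numbered by falling UMIs of the rule genes) held 762 and 830 UMIs of keratinocyte markers and 13 UMIs of the rule genes each. Cell 2 of SAR131675 held 235 UMIs of fibroblast markers beside 93 of the rule genes. Cell 17 of LNR held 1442 UMIs of Prg4, which encodes the joint lubricant lubricin, beside 9 of the rule genes. Cell 18 of sham held all 19 endothelial marker UMIs of the LNR pair. Whether such barcodes are doublets, melanocytes with free RNA or other cells with free RNA of pigment genes was not tested. The main results between libraries are therefore given for all 54 cells and for the 40.

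The order of the libraries depended on these barcodes. Among the 40 cells Dct stood at 11984 CPM in SAR131675, 12473 in the control diet, 15036 in LNR and 17225 in sham, and Pmel at 6439, 6236, 5289 and 5634. Sham was then the highest for Dct and SAR131675 for Pmel. Among keratin-low cells Dct was highest in sham, at 15690 CPM, and lowest in LNR, at 6018. Keratin-low cells were not free of mixed barcodes. Cells 13, 14, 16 and 17 of LNR were keratin-low but failed the split, as did 1 keratin-low cell each of SAR131675 and sham. These LNR cells held 26659, 22885, 23962 and 9914 UMIs, against a median of 5602 in keratin-low LNR cells. This weights the keratin-low sums of LNR wherever they are given. Of the 3 SAR131675 cells in the set of 40, cell 1 held 211 of the 268 Dct UMIs and 122 of the 144 Pmel UMIs, so that most of these UMIs came from 1 cell.

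Genes other than those of the rule also set melanocytes apart. Among 1687 genes with at least 50 UMIs in melanocytes, 37 (2.19%) were at least 4-fold higher than in other kept cells of the same library in every library, on the scale of CPM plus 10. The minimum applies to the UMIs in melanocytes, so genes high there reach it more easily. These counts, here and for the lists below, are descriptions only. Ptgds, a prostaglandin D synthase, led this order by its smallest ratio of the 4 libraries, at 586 CPM in SAR131675, 2058 in the control diet, 1328 in LNR and 2020.4 in sham, and at most 0.3 CPM in other kept cells. Npy, a neuropeptide, stood at 287, 830.1, 589.6 and 760.3 CPM. Syt4, a synaptotagmin of vesicle release, stood at 234, 1270.0, 175 and 472 CPM. Other kept cells were at no more than 4.7 CPM for Npy and 0.1 CPM for Syt4.

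Channels of the endolysosomal system and further membrane genes followed. Mcoln3, an endolysosomal cation channel, stood at 182, 461, 110 and 232 CPM in SAR131675, control diet, LNR and sham melanocytes. Cpne4, which encodes a copine, stood at 560, 1518, 77.7 and 49.3 CPM, and Mgat5, a glycosyltransferase, at 651, 2058, 143 and 176 CPM. Both were higher in the diet pair than in the LNR pair, as was Mgat5 in other kept cells, at 70.8, 68.9, 14.2 and 14.0 CPM. Gstp1, a glutathione transferase, varied less, at 169, 170.3, 84.2 and 197 CPM. The remaining genes among the leading 30 outside the lists below were Syngr1, St3gal6, Plxnc1, Bace2, Phlda1, Glrb, Car14, Runx3, Nrcam, Gucy1b1 and Cdk2, each at 42.2 to 1199 CPM in every library.

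The list of melanosome channels, transporters and membrane proteins was detected in every melanocyte, although single genes of it were not. Of its 12 genes, 11 had a UMI in melanocytes and 6 had at least 50, and 5 of these 6 were at least 4-fold higher than in other kept cells in every library, against the 2.19% of all genes. Genes of the list that were low in melanocytes did not reach that minimum, so this count is not support for the list. Summed, the list stood at 4499 CPM in melanocytes (4317 to 4686), 93.3 in other kept cells and 69.3 in Schwann cells, and all 54 cells held at least 1 UMI of it. In cell 5 of SAR131675, cells 13 and 16 of LNR and cell 19 of sham it stood at 56.6, 75.0, 41.7 and 50.8 CPM. Those levels were below that of other kept cells.

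Slc24a5, a potassium-dependent sodium/calcium exchanger needed for normal pigment, stood at 729 CPM in SAR131675, 2277 in the control diet, 518 in LNR and 873 in sham, in 45 of 54 cells. Trpm1, a cation channel first known as melastatin, stood at 834, 2114, 298 and 521 CPM. Oca2, which sets melanosome pH and is mutated in a form of albinism, stood at 508, 2086, 97.2 and 49.3 CPM, and only 24 cells held it. Over all cells the control diet library was the highest for all 3 genes. Among the 40 cells it was the highest for Slc24a5 and Oca2, but Trpm1 stood at 2415 CPM in SAR131675 against 2114, and 51 of those 54 SAR131675 UMIs were in cell 1.

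Gpnmb, a glycoprotein of melanosomes that macrophages also make, stood at 977 CPM in SAR131675, 2391 in the control diet, 713 in LNR and 655 in sham. It was found in 49 melanocytes, and other kept cells were at 18.7 to 34.2 CPM. Slc45a2, a melanosome transporter whose loss causes albinism, stood at 39.1, 489.5, 64.8 and 106 CPM in 26 cells. Slc24a4 stood at 26, 369, 6.5 and 7.0 CPM. Gpr143, the receptor of ocular albinism, was found in 20 cells and Tspan10 in 18, none of the latter in SAR131675. Atp7a and Slc7a11 were close to other kept cells. Atp7a, a copper pump, stood at 52.5 CPM against 36.1 in other kept cells, and Slc7a11, a cystine transporter, at 23.3 against 19.8. Tpcn2, an endolysosomal channel, had no UMI in melanocytes.

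Transcription factors of the lineage were present, and some were shared with Schwann cells. Mitf stood at 482 CPM in SAR131675, 2242 in the control diet, 136 in LNR and 282 in sham, in 40 of 54 cells. Other kept cells were at 79.3, 72.7, 18.8 and 17.3 CPM in the same order, so they too were higher in the diet pair. Pax3, a regulator of Mitf, stood at 677, 1561, 194 and 119.7 CPM in 41 cells, with 135 CPM in Schwann cells and 0.6 in other kept cells. Sox10, which marks neural crest derivatives, was lower in melanocytes (39.1, 206, 51.8 and 28.2 CPM, in 22 cells) than in Schwann cells of the same libraries (204, 309.6, 149 and 129 CPM). Zeb2 likewise stood at 488 CPM in melanocytes and 2103 in Schwann cells. Over the 14 factors, the sum was 2890.3 CPM in melanocytes and 3136 in Schwann cells. Of 6 genes with enough UMIs, 2 were 4-fold higher than in other kept cells in every library, against 2.19% of all genes. Tfec was the factor with no UMI.

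Receptors were led by Kit, the receptor for KIT ligand. Kit stood at 586 CPM in SAR131675, 1171 in the control diet, 518 in LNR and 493 in sham, in 48 of 54 melanocytes, with 5.6 CPM in other kept cells. Ednrb, the endothelin receptor of the lineage, stood at 404, 1064, 324 and 246 CPM in 40 cells. Over all cells the control diet library was again the highest for both. Among the 40 cells Kit stood at 1341 CPM in SAR131675 and 1378 in LNR against 1171 in the control diet, and Ednrb at 1073 in SAR131675 against 1064. Mc1r, the receptor for melanocyte-stimulating hormone, stood at 26, 468, 77.7 and 169 CPM in 26 cells. Met, the receptor for hepatocyte growth factor, was higher in the diet pair, at 365 and 922 CPM against 71.3 and 42.2 in LNR and sham. Met was also higher in the diet pair in other kept cells, at 17.7 and 17.9 CPM against 7.30 and 7.35. Erbb3, a neuregulin receptor, stood at 97.3 CPM. Ngfr, Frzb and Ptger3 of the 12 had no UMI in melanocytes.

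The ligands of these receptors were found mainly in other cells. Of 10 ligand genes, 4 had any UMI in melanocytes, 22 UMIs in all. Kitl, which encodes KIT ligand, had 13 UMIs in melanocytes and stood at 529.5 CPM in SAR131675, 472 in control diet, 158 in LNR and 154 in sham endothelial cells, and at 61.0 to 154 CPM in fibroblasts. Edn1 and Edn3, endothelin genes, had no UMI in melanocytes, and Edn1 stood at 112 to 143 CPM in endothelial cells. Asip, which encodes the agouti antagonist of MC1R, had 1 UMI in melanocytes and stood at 28.0 to 79.0 CPM in fibroblasts.

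**Figure D2:**
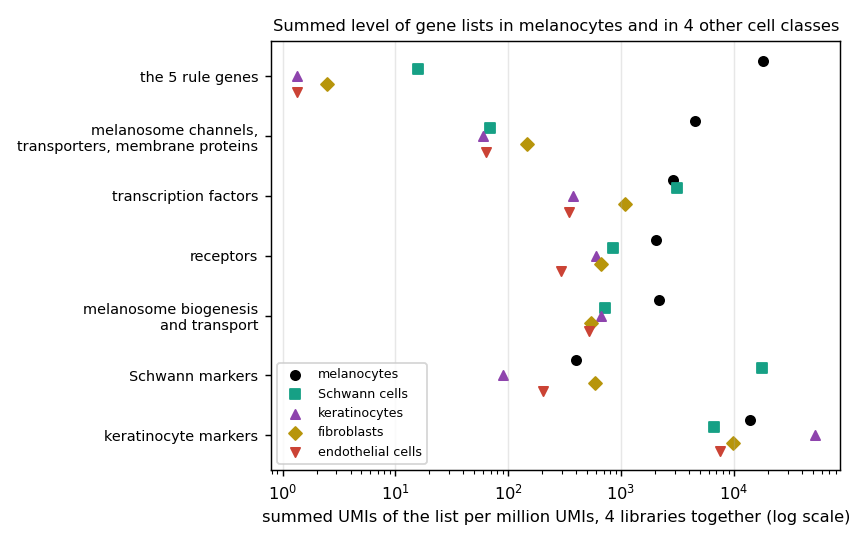
Summed level of 7 gene lists in CPM (x axis, log scale, 4 libraries together) in melanocytes and in 4 other classes of kept cells. Melanocytes are at 18159 CPM for the rule genes and 4499 for melanosome channels, Schwann cells are at 17884 CPM for Schwann markers, and for transcription factors they lie close together at 2890.3 and 3136 CPM.

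Genes for melanosome sorting and movement were detected broadly, with less excess over other cells. Of 23 genes, 22 had a UMI in melanocytes. Of 7 with at least 50 UMIs, 2 were 4-fold higher in every library, against 2.19% of all genes. Mlph, which encodes melanophilin, the link between melanosomes and their motor, stood at 117 CPM in SAR131675, 255 in the control diet, 84.2 in LNR and 63.4 in sham, against at most 1.1 in other kept cells. Rab27a, its membrane partner, stood at 65.1, 219.9, 64.8 and 42.2 CPM. Myo5a, the motor itself, stood at 859.6, 1504, 207 and 162 CPM, with 52.4 to 181 in other kept cells. Sytl2, a RAB27 effector, stood at 313, 759, 129.6 and 169 CPM.

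Among adhesion genes, Cd63 and Cdh3 were above their level in other kept cells. Cd63, a tetraspanin that sorts PMEL, stood at 1211 CPM in SAR131675, 3356 in the control diet, 1484 in LNR and 1830 in sham, and at 313 to 440 CPM in other kept cells. Cdh3, which encodes P-cadherin, stood at 338 CPM over all melanocytes against 44 in other kept cells. Cdh1, E-cadherin, was level with other kept cells, at 144 against 146 CPM, and Cdh2, N-cadherin, stood at 56 CPM against 414 in Schwann cells. Foxd3, a neural crest factor, was found in 16 cells at 42.8 CPM, while Sox2 and Nes had no UMI. Bcl2, a survival factor that melanocyte stem cells need, stood at 171 CPM against 29.6.

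Markers of other lineages were low or absent, apart from those of the mixed barcodes. Of 10 Schwann markers, 6 had a UMI, and their sum was 399 CPM in melanocytes against 17884 in Schwann cells. Scn7a, Gfra3, Ncmap and Mal had no UMI. Leukocyte markers had 7 UMIs in all, none of them Ptprc or Cd74, and Merkel cell markers had none. Keratinocyte markers summed to 13989 CPM over all melanocytes, 3032 CPM in the keratin-low cells and 34215 CPM in other kept cells. The highest sum of these markers in a library was 28032 CPM, in sham.

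Genes of cell division were detected in most melanocytes at low levels. The list of 18 genes summed to 649.6 CPM in melanocytes and 1287 in other kept cells, and 47 of the 54 cells held at least 1 UMI of it. Cell 3 of sham, which was keratin-high, held 96 of the 186 UMIs of the list in that library. Mki67, a marker of cycling cells, was found in 3 melanocytes with 12 UMIs in all, cell 2 of LNR and cells 3 and 14 of sham, and each of these was keratin-high. Among the 46 keratin-low melanocytes none held Mki67, which allows a share of up to 6.52% of cells with a UMI at 3 cells of 46.

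Receptors of the axis on which SAR131675 acts were at or near 0 in melanocytes. Flt4, which encodes VEGFR3, had no UMI in the 54 cells. Taken as 3 UMIs among their 514137 UMIs, the limit was 5.84 CPM, above the 4.0 CPM of other kept cells. Kdr had 1 UMI. Vegfb, a VEGF ligand, was found in 34 melanocytes at 119 CPM against 20.3 in other kept cells. By library it stood at 52.1, 185, 104 and 106 CPM in SAR131675, control diet, LNR and sham. The lysosomal list that included genes of the study's osteoclast score stood at 1754 CPM against 1430.1 in other kept cells, and Atp6v0d2, a proton pump subunit also known from osteoclasts, at 93.4 against 1.3 CPM in 14 melanocytes.

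Clustering the melanocytes without the rule genes gave 3 groups that largely followed the pair of libraries and the keratin content, not the single library. One held 15 cells, 12 of the control diet and 3 of SAR131675, led by Fstl4, Oca2 and Fmn1. Another held 23 cells, 10 of LNR and 13 of sham, led by Npy, Ptgds and Cyba. The last held 16 cells, 3 of SAR131675, 7 of LNR and 6 of sham, with all 8 keratin-high cells, and was led by Prg4, Krt14 and Ly6d. Median depth also differed, at 11821, 3437 and 16689.5 UMIs per cell in the groups of 15, 23 and 16 cells. The leading genes describe the groups and were not tested.

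Depth differed between the melanocytes of the libraries. Their median was 15599 UMIs in SAR131675, 12003 in the control diet, 6440 in LNR and 4041 in sham, with 4894, 4316, 2552 and 1620 genes. When kept cells were thinned to 2000 UMIs, 6, 12, 14 and 17 of the melanocytes were deep enough, and 5, 12, 10 and 15 of these still met the rule. In the thinning used for the ratios of thinned cells below, 5, 12, 10 and 14 cells met it. At that depth, Mitf was found in 3 of 6, 11 of 12, 4 of 14 and 7 of 17 cells, against 4 of 6, 12 of 12, 10 of 17 and 14 of 19 without thinning. Kit was found in 4 of 6, 11 of 12, 9 of 14 and 11 of 17 thinned cells. At equal UMIs the control diet had the largest shares of cells with either gene, but the mixed barcodes were among these cells, and the median number of genes per thinned cell still differed, at 1286, 1325.5, 973.5 and 980.

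Melanocytes were rare in every library. They made up 6 of 29076 kept cells in SAR131675 (0.0206%, 0.00757 to 0.0449), 12 of 24030 in the control diet (0.0499%, 0.0258 to 0.0872), 17 of 19827 in LNR (0.0857%, 0.0500 to 0.137) and 19 of 20669 in sham (0.0919%, 0.0554 to 0.144). The log2 ratio of shares was -1.27 (-2.97 to 0.25) for SAR131675 against the control diet and -0.10 (-1.13 to 0.92) for LNR against sham, so that neither was resolved from 0 at this number of cells. With the 40 cells in which rule genes outnumbered other markers, the ratio was -2.27 (-4.74 to -0.39; 3 against 12 cells) in the diet pair, and -0.29 (-1.57 to 0.96; 11 against 14 cells) in the LNR pair. With the keratin-low cells it was -1.86 (-3.95 to -0.14; 4 against 12 cells) in the diet pair. In droplet libraries, fewer cells captured and fewer cells in the tissue cannot be told apart.

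**Figure D3:**
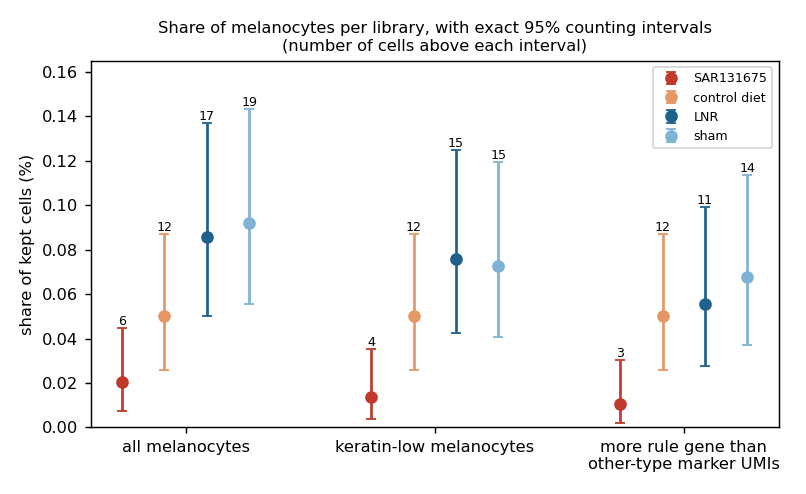
Share of kept cells (y axis, percent) that were melanocytes in each library, for all 54 cells, for keratin-low cells and for cells with more rule gene than other-type marker UMIs. Points are shares, bars are exact 95% counting intervals, and numbers above them are cells. The SAR131675 points lie below the control diet points in all 3 sets, and the intervals of the libraries overlap within both pairs in each set.

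The first comparison within melanocytes asked how SAR131675 differed from the control diet. Of 757 genes with at least 50 UMIs in the pair, 64 (8.45%) were at least 2-fold higher and 125 (16.5%) at least 2-fold lower in SAR131675. The median log2 ratio over these genes was -0.09. All 6 melanosome channel genes with enough UMIs were at least 2-fold lower, as were 3 of 5 transcription factors and 3 of 4 receptors. The minimum applies to the UMIs of both libraries together. Genes high in the control diet reach it more easily, so these counts are descriptions only. The channel list stood at 3282 CPM in SAR131675 (2889 to 3713) and 10316 CPM in control diet cells (9792 to 10860.1), which gave a log2 ratio of -1.65 (-1.85 to -1.46). Per cell it ran from 56.6 to 13093 CPM with a median of 2573 in SAR131675, and from 1586 to 16873 CPM with a median of 11177 in the control diet, so the cells of the libraries overlapped.

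The summed level moved both with the mixed barcodes and with 1 cell. In all melanocytes of the pair the keratinocyte markers stood at 21255 CPM in SAR131675 against 1050.0 CPM in control diet cells, with a log2 ratio of 4.34 (4.10 to 4.59), and the fibroblast markers had 237 against 8 UMIs, 235 of them in cell 2. In the 3 and 12 cells with more rule gene than other-type UMIs, the channel list was at 9211 against 10316 CPM. The log2 ratio was -0.16 (-0.38 to 0.05). Of its 6 genes with enough UMIs, 2 were at least 2-fold lower, against 7.72% of the 531 genes with enough UMIs in these cells. They were Slc45a2 and Slc24a4, with 2 UMIs each against 69 and 52, so they reached the minimum through the control diet. Cell 1 of SAR131675 held 177 of the 206 UMIs of the list in those 3 cells. Without it the other two stood at 3279 CPM, and the log2 ratio was again -1.65 (-2.24 to -1.13). The median per cell was 3685 CPM in the 3 cells against 11177 in the control diet. The keratinocyte markers there had a log2 ratio of -0.16 (-0.90 to 0.50). The transcription factor list had a log2 ratio of -0.31 (-0.59 to -0.03) in these cells, against -1.34 (-1.57 to -1.12) in all, and the receptor list was at 3890.2 against 3895 CPM (interval of the log2 ratio -0.35 to 0.33), against a log2 ratio of -1.0 (-1.27 to -0.73) in all. Other lists were higher in SAR131675 in these cells. The melanosome sorting and movement list was at 0.33 (0.04 to 0.60), against -0.97 (-1.21 to -0.73) in all, and the Schwann markers were at 1341 against 546 CPM, a log2 ratio of 1.30 (0.64 to 1.92) on 30 against 77 UMIs, against 0.28 (-0.26 to 0.81) in all. The part of the Schwann markers in these results was not tested. Cell 1 also held more UMIs than the other two cells together, which weights these sums. The split uses the UMIs of the rule genes, so cells low in them are left out by construction.

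The genes of the largest size in the diet pair were taken among those with at least 100 UMIs in the pair. The 5 largest higher in SAR131675 were Igfbp5, Dcn, Krt1, Ly6d and Calm4. Igfbp5 had 175 UMIs in 1 cell against none in the control diet, and Dcn, a fibroblast proteoglycan, had 169 UMIs, 98.8% of them in 1 cell, against 1. Krt1, Ly6d and Calm4, genes of differentiating keratinocytes, had 302, 171 and 105 UMIs against 5, 5 and 4.

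With the same minimum of 100 UMIs, the 5 largest lower in SAR131675 were Pde10a, Bace2, Syt4, Fstl4 and the rule gene Mlana. Pde10a, a phosphodiesterase of cyclic nucleotides, had 3 UMIs in 2 of 6 SAR131675 cells and 170 UMIs in 10 of 12 control diet cells, or 39.1 against 1206 CPM and a log2 ratio of CPM plus 10 of -4.63. In the 3 and 12 cells with more rule gene than other-type UMIs, its ratio was -4.47, with 1 against 170 UMIs. Bace2, a protease that cuts PMEL, was at 130.2 against 929 CPM, a ratio of -2.74 in all cells and -1.04 in those cells. Syt4 was at -2.39 and -1.49, and Fstl4 at -2.25 and -0.92. Mc1r, below that minimum, stood at -3.73 in all cells and -3.13 in those cells, where 1 UMI in 1 of 3 cells stood against 66 UMIs in 10 of 12. Slc45a2 likewise stood at -3.35 and -2.33. These lower levels rest on 3 SAR131675 cells.

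**Figure D4:**
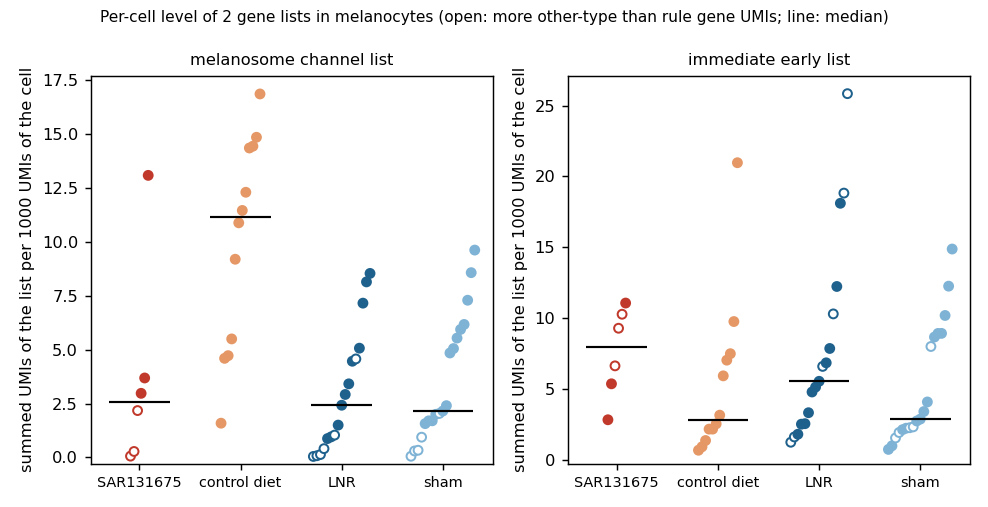
Level of the melanosome channel list (left) and of the immediate early list (right) in each melanocyte, as summed UMIs per 1000 UMIs of the cell, by library. Filled points are cells with more rule gene than other-type marker UMIs, open points are the others, and lines are medians over all cells of a library. The control diet cells have the highest median of the channel list (11177 CPM).

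The second comparison asked how LNR differed from sham. Of 719 genes with at least 50 UMIs in the pair, 38 (5.29%) were at least 2-fold higher and 43 (5.98%) at least 2-fold lower in LNR. The median log2 ratio over these genes was -0.07. The channel list stood at 1769 CPM in LNR (1565 to 1991) and 2351 CPM in sham (2106 to 2617), a log2 ratio of -0.41 (-0.65 to -0.18), and none of its 3 genes with enough UMIs passed 2-fold. This direction depended on the rule, since the ratio was 0.33 (0.07 to 0.59) in cells with all 5 rule genes and 0.20 (-0.03 to 0.44) when 2 were enough, whereas it was -1.36 (-1.63 to -1.10) in keratin-low cells and -1.08 (-1.41 to -0.75) at 5% mitochondrial UMIs. The 5 rule genes, by which the cells were chosen, stood at 12568 against 17226 CPM over all cells and at 27801 against 32157 CPM in the 11 and 14 cells with more rule gene than other-type UMIs. In those 11 and 14 cells, the channel list was at -0.14 (-0.41 to 0.12). The receptor list was at 0.20 (-0.11 to 0.51) and the transcription factor list at -0.10 (-0.42 to 0.21) over all cells, so that neither was resolved from 0. In keratin-low cells both were lower in LNR, at -0.47 (-0.81 to -0.14) and -0.65 (-0.99 to -0.30). That set, also used for the channel ratio of -1.36, still held 4 LNR cells and 1 sham cell with more other-type than rule gene UMIs. Their part in these ratios was not tested. In the 11 and 14 cells, the receptor list was in the opposite direction, at 0.49 (0.13 to 0.85), with Ednrb at 871 against 468 CPM, and the interferon and MHC list at -0.86 (-1.41 to -0.33), with B2m at 426 against 775 CPM. Over all LNR and sham cells the interferon and MHC list was at -0.13 (-0.43 to 0.16), not resolved from 0.

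A list of 12 genes used for melanocyte stem cells or neural crest precursors was higher in LNR in all 3 sets of cells. Over all cells its level was 2287 CPM in LNR against 1323 in sham, a log2 ratio of 0.79 (0.53 to 1.05), at 0.47 (0.17 to 0.78) in keratin-low cells and at 0.46 (0.04 to 0.88) in the 11 and 14 cells. Of the 353 LNR UMIs of the list, 103 were in those 11 cells. Sox9, with 49 UMIs in 5 LNR cells against 1 UMI in sham, was the 1 gene at least 2-fold higher of 5 with enough UMIs, against 5.29% of all genes, and it reached the minimum through LNR. Id3, an inhibitor of bHLH transcription factors, had the most UMIs, 134 in LNR and 68 in sham. The defining genes Sox2 and Nes had no UMI, and per cell the list ran from 0 to 4345 CPM in LNR and from 0 to 5326 CPM in sham, so the cells overlapped.

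The immediate early list, genes that respond to stress and to tissue dissociation, was higher in LNR than in sham melanocytes. Of 12 genes with enough UMIs, 10 were at least 2-fold higher in LNR against 5.29% of all genes. The minimum applies to the UMIs of both libraries together. A gene high in LNR reaches it more easily, so the count is a description only. The sum was 10605 CPM in LNR (10098 to 11132) and 3464 CPM in sham (3164 to 3784), a log2 ratio of 1.61 (1.47 to 1.76), whereas the ratio in other kept cells was 0.14. With cells thinned to 2000 UMIs the direction turned, to -0.29 (-0.68 to 0.10). Btg2 had 108 against 5 UMIs, Atf3 117 against 12, Nr4a1 119 against 19 and Ier3 113 against 24, and these were 4 of the 5 genes of largest size higher in LNR among those with at least 100 UMIs, with ratios of CPM plus 10 of 3.97, 3.02, 2.44 and 2.05. Fos stood at 2015 against 655 CPM.

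Single cells carried much of this excess. Cells 13 and 16 of LNR held 689 and 451 of the 1637 immediate early UMIs, and each had more UMIs of other-type markers than of rule genes, 254 against 34 and 328 against 14. In the 11 and 14 cells with more rule gene UMIs, the log2 ratio of the list was 0.26 (0.02 to 0.50). There 0 of its 2 genes with enough UMIs were at least 2-fold higher in LNR, against 7 of all 273 genes. Over all cells, with each given the same weight, the log2 ratio of the list was 0.61. In the diet pair the list had a ratio of 0.33 (0.17 to 0.48) over all cells, but -0.34 (-0.64 to -0.05) in the 3 and 12 cells with more rule gene UMIs and -0.90 without the upper limits on barcodes.

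The remaining genes of largest size in the LNR pair belonged to other cell types. Prg4, which had the largest ratio of those higher in LNR, had 1447 against 2 UMIs, 99.7% of them in cell 17. The 5 largest lower in LNR were Calm4, Krt2, Mt4, Krtdap and Fam25c, keratinocyte genes with 6, 14, 15, 48 and 15 UMIs in LNR against 296, 336, 343, 648 and 187 in sham. Keratinocyte markers as a list had a log2 ratio of -1.60 (-1.69 to -1.51), 0.71 among keratin-low cells and -3.07 among the cells with more rule gene UMIs. In that last set, cell 5 of sham held 146 and cell 1 of sham 57 of the 232 sham UMIs. Crip1, which encodes a LIM domain protein, was at 2391 against 307 CPM in the same set, 118 UMIs in 8 of 11 cells against 19 UMIs in 7 of 14, a log2 ratio of CPM plus 10 of 2.92. Cell 8 of LNR held 100 of the 118 UMIs, and the other 10 cells stood at 435 CPM. This gene was among those past 2-fold the same way in both pairs over all cells.

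**Figure D5:**
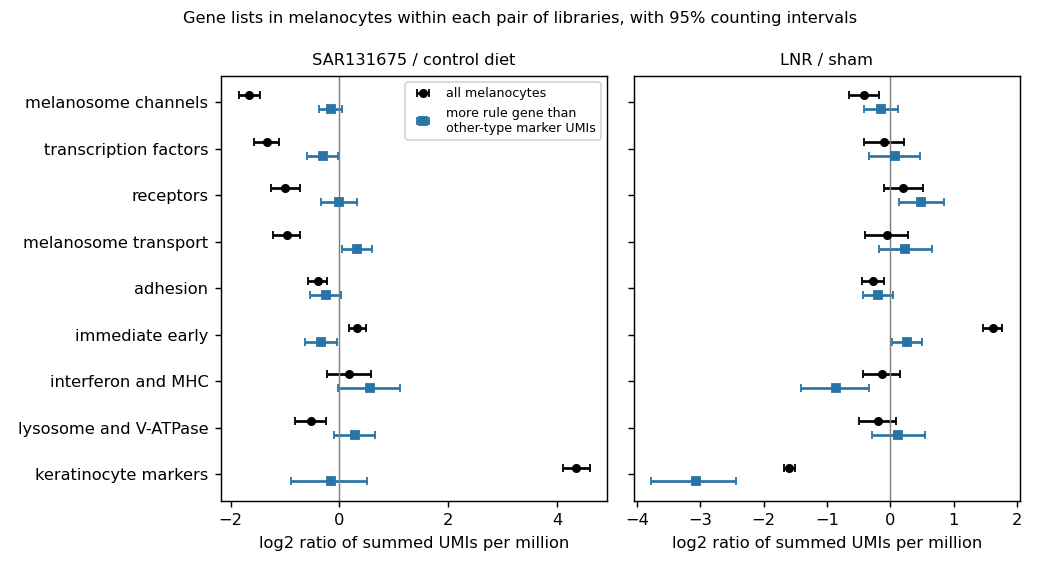
Log2 ratio of summed CPM (x axis) of 9 gene lists in melanocytes, SAR131675 against control diet (left) and LNR against sham (right), with exact 95% counting intervals. Black points are all melanocytes and blue squares the cells with more rule gene than other-type marker UMIs. For melanosome channels the diet pair stands at -1.65 in black and -0.16 in blue, where 1 of the 3 SAR131675 cells holds 177 of 206 UMIs, and for immediate early genes the LNR pair at 1.61 and 0.26.

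Few genes differed the same way in both pairs, which share no library. Of 468 genes with enough UMIs in each, 6 passed 2-fold in the same direction. In the SAR131675 and LNR libraries Crip1, Dcn, Krt15 and Nfkbia were higher and Mcoln3 and Syt4 lower. All 54 SAR131675 UMIs of the keratin gene Krt15 were in 2 keratin-high cells. Its log2 ratio of CPM plus 10 in the diet pair was -2.74 in keratin-low cells. Crip1 stood at 989.8 against 255 CPM in the diet pair and 1302 against 408 in the LNR pair. Single cells carried both, with 89.5% of the SAR131675 UMIs in the fibroblast-mixed cell 2 and 49.8% of the LNR UMIs in cell 8. The median per cell was 111 CPM in SAR131675 against 163 in the control diet, the opposite direction. Nfkbia, an inhibitor of NF-kB, stood at 534 against 234 and at 382 against 162 CPM, with 47.5% of the LNR UMIs in 1 cell and medians per cell of 93.9 in LNR and 93.6 in sham. Syt4 stood at 234 against 1270.0 CPM and at 175 against 472 CPM. Mcoln3 stood at 182 against 461 and at 110 against 232 CPM, with a log2 ratio of CPM plus 10 of -0.04 in the diet pair among cells with more rule gene UMIs.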

How the data were processed

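P3 digit tissue was digested with collagenases and dispase, and 1 droplet library of the 3' v3 kit was made per condition. The values deposited by the authors are unnormalized counts of UMIs for 33696 genes in each barcode, made with Cell Ranger on genome build GRCm39, per the labels. The labels name Cell Ranger 6.1.2, whereas the matrix headers name 8.0.1 for the diet pair and 6.1.2 for the LNR pair. The limits on barcodes, the rule for melanocytes, the gene lists and the comparisons were chosen with earlier results of these data known.

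Counts were summed per library and divided by the melanocytes' UMIs (CPM). Ratios were ranked as log2 of CPM plus 10, for genes with at least 50 UMIs in the cells compared. Calls were 2-fold within pairs and 4-fold in every library against other kept cells. Intervals at 95% were Clopper-Pearson for shares, exact Poisson for CPM and exact conditional for log2 ratios. With 1 library per condition no p-value was computed. Named genes were the rule genes, the leading 30 against other cells, genes of 21 lists, the 5 largest higher and lower in each pair with at least 100 UMIs, and those past 2-fold the same way in both pairs. Mc1r, Slc45a2 and Crip1 in the reduced set of cells were singled out after their values were seen. Fibroblasts, endothelial and Schwann cells were kept cells other than melanocytes with at least 3 of a fixed set of markers. Keratinocytes were kept cells other than melanocytes with at least 1% of their UMIs from Krt5, Krt14, Krt15, Krt1 and Krt10. Doublets were left in and no caller was run. The intervals of ratios were checked on simulated counts that had counting error only and no spread between cells. The 2-fold and 4-fold calls were not simulated. Python 3.11.15, numpy 2.4.6, scipy 1.17.1, pandas 2.3.3, scanpy 1.11.5 and matplotlib 3.10.9 were used. Alternatives changed the rule, the limits, the depth, the scale, the weight of a cell and the cells that entered. Some genes of the lists are not reported here.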

Additional observations from a re-analysis of the deposited data

Results flagged for a closer look

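Barcodes with 3 or more of the rule genes were also found outside the limits on barcodes, and they entered the values above only where the upper limits were lifted. There were 9 in SAR131675, 15 in the control diet, 4 in LNR and 5 in sham, 33 in all against 54 within the limits. In the diet pair all 24 exceeded 5500 genes, while 3 in LNR and 2 in sham exceeded the mitochondrial limit. They held 596 to 154083 UMIs, 19 were keratin-high, and in 4 the rule genes outnumbered markers of other cell types.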

How the results depend on the processing

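Of 109 alternative values, 55 stayed within the counting interval of the reported value (counts of genes, within 1.5 times), 44 moved beyond it and 10 reversed a ratio resolved from 0, and the cause was not tested. The 55 include values that could not move. In the diet pair, 4 rule genes, 10 UMIs of them or at most 5% mitochondrial UMIs kept the same 6 and 12 melanocytes. They also include every alternative for the shares, whose intervals were wide. Shares were lower in SAR131675 in each alternative (log2 ratio -2.27 to -0.44) and ran from -0.64 to 0.06 in the LNR pair, and 16 of 20 intervals held 0. The exceptions were in the diet pair, with no upper limits (-1.16, -2.18 to -0.20; 15 against 27 cells), with keratin-low cells (-1.86, and -1.97 over keratin-low kept cells) and with cells of more rule gene than other-type UMIs (-2.27). That set, equal weights and every immediate early alternative were chosen after seeing the data. The channel list in the diet pair (-1.65) was -2.23 with 2 rule genes required, -1.33 with all 5, -0.77 in keratin-low cells, -1.28 without upper limits, -1.25 thinned, -0.16 with more rule gene UMIs (-1.65 there without cell 1 of SAR131675) and -1.44 with equal weights. In the LNR pair (-0.41) it was 0.20 and 0.33 with 2 and all 5 rule genes, -1.36 in keratin-low cells, -0.07 without upper limits, -1.08 at 5% mitochondrial UMIs, -0.08 thinned and -0.14 with more rule gene UMIs. Keratinocyte markers in the diet pair (4.34) were at -0.45 and 3.69 with 2 and all 5 genes, -0.10 in keratin-low cells, 0.48 without upper limits, 3.43 thinned, -0.16 with more rule gene UMIs and 4.08 with equal weights. In the LNR pair (-1.60) they were at -1.49, -1.26 and -0.95 with 2, 4 and all 5 genes, -1.17 with 10 UMIs of the rule genes, 0.71 in keratin-low cells, -2.06 without upper limits, -2.17 at 5% mitochondrial UMIs, 0.15 thinned, -3.07 with more rule gene UMIs and -0.97 with equal weights. The number of genes tested also changed. Genes past 2-fold in the diet pair (189 of 757) were 83 of 622 in keratin-low cells, 288 of 6045 without upper limits, 13 of 65 thinned, 627 of 2507 with a minimum of 20 UMIs and 58 of 531 with more rule gene UMIs. In the LNR pair (81 of 719) they were 123 of 969 and 31 of 388 with 2 and all 5 genes, 160 of 1277 without upper limits, 0 of 132 thinned, 284 of 1982 with a minimum of 20 UMIs and 13 of 273 with more rule gene UMIs. Immediate early genes reversed in the diet pair without upper limits (-0.90) and with more rule gene UMIs (-0.34), and in the LNR pair when thinned (-0.29). No paired analysis was possible because each condition has 1 library. At 6 to 19 cells per library, genes found in few cells vary beyond what the counting intervals cover.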
